A study of Homo sapiens with 6 samples.

Results

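The tight junction proteins considered here are 9 genes: the claudins CLDN1, CLDN2, CLDN3, CLDN4, CLDN7 and CLDN18, occludin (OCLN), the scaffold ZO-1 (TJP1) and junctional adhesion molecule A (F11R). Members were taken by gene symbol, as every probe that the platform annotation assigns to 1 of the 9 symbols. That gave 13 of the 47228 probes of an Illumina BeadChip, for 8 of the 9 genes, out of 20046 genes named on the array. For F11R no value is given, because no probe carried its symbol in the annotation used. The tested group was Capan1, a human pancreatic cancer line labelled as well differentiated, grown for 10 days on a gel of type I collagen and Matrigel in which PS1 pancreatic stellate cells were embedded (3 arrays). Its comparison was Capan1 on the gel without stellate cells (3 arrays). In both groups the gel was raised onto a grid at 24 hours and fed from below, and laser microdissection of frozen sections supplied the cancer layer whose RNA was read. One label, exposure to PS1, stands on all 6 samples and conflicts with the titles and source names of the 3 samples of Capan1 alone, so every direction below rests on the titles. Each group rests on a single cancer line and the group with stellate cells on a single stellate line. Whether replicates were grown as separate cultures is not given, so the spread behind each p-value is that between these samples and may be technical only.

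Tight junctions are the most apical seal between epithelial cells. Claudins span the membrane and polymerise into strands that decide which ions and solutes cross between cells: CLDN1, CLDN3, CLDN4 and CLDN7 are usually described as sealing or epithelial claudins, CLDN2 as a pore for small cations and water, and CLDN18 as the claudin of stomach and lung. Occludin joins the same strands, JAM-A is an immunoglobulin-type adhesion protein beside them, and ZO-1 is the plaque protein that ties claudin tails to actin. Claudins are known to vary widely between pancreatic duct, precursor lesions and carcinoma.

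With stellate cells in the gel, CLDN3 and CLDN2 rose, by 2.01-fold and 1.94-fold on the background-corrected scale. None of the 6 members that could be tested was lower at a limma adjusted p of 0.05. Of these 6 genes, each represented by its probe with the highest mean, 2 passed a limma adjusted p of 0.05, both upward, against 4.77% of all 10781 genes tested (2.65% upward and 2.11% downward). The median log2 change of the 6 was 0.54, against 0.015 over all genes, and 5 of 6 had values above 0, against 51.8% of all genes. The members were chosen with earlier results of these data known, so these shares describe the set and do not test it. CLDN4, CLDN7, TJP1 and CLDN1 did not pass, and CLDN1 was the gene below 0, at -0.40. The calls of CLDN3 and CLDN2 each held in only 2 of the 6 fits that leave out 1 array. Neither call held with each array scaled by its median alone. CLDN18 and OCLN were detected on no array.

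The arrays were not alike in quality. Mean deposited signal lay between 273 and 449 intensity units with stellate cells and between 384 and 494 alone, and arrays held 16325 to 19602 probes with a detection p below 0.05. Replicate 3 with stellate cells stood apart: it had the fewest detected probes, and its 28S ribosomal RNA probe ILMN_3251587 read 12.85 on the log2 scale, while the other 5 arrays lay between 5.97 and 8.32. Values without it are therefore given beside the results. The levels below are log2 intensities after background correction and quantile normalization. Because a probe's brightness depends on its own sequence, changes are read between groups for 1 probe. Where probes are called brightest or summed over a list, this refers to probe intensity and does not rank the transcript levels of genes.

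CLDN3, a claudin of simple epithelia read by probe ILMN_1723042, was at 9.82, 10.13 and 9.54 in replicates 1, 2 and 3 with stellate cells, against 8.61, 8.83 and 9.03 alone. The lowest array with stellate cells lay above the highest array alone. The group means were 9.83 ± 0.29 with stellate cells and 8.82 ± 0.21 alone (SD, n = 3 arrays each), a log2 change of 1.01 ± 0.19 (SE) or 2.01-fold higher, with a limma adjusted p of 0.0128 over all 18165 probes tested, of which 4.02% passed. Of tested probes, 1.19% had a larger change upward. Before normalization the deposited CLDN3 signals were 699, 1450.3 and 625 intensity units with stellate cells and 647, 522 and 655 alone, and these overlapped. The groups separated after quantile normalization, with or without background correction, after cyclic loess and in the authors' deposited table. With each array scaled by its median alone, the groups overlapped and the change was 0.74 (adjusted p = 0.225). That scaling moved the median of all tested probes to -0.20, so relative to it the change of CLDN3 was 0.94. The call held when replicate 3 with stellate cells was dropped (adjusted p = 0.000222), and also when replicate 3 alone was (0.048). It was lost when replicate 1 or 2 with stellate cells was dropped (0.0636 and 0.0507) or replicate 1 or 2 alone (0.0662 and 0.0669), with a change of 0.86 to 1.14 over the 6 fits.

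CLDN2, the cation pore claudin read by probe ILMN_1795190, was at 6.89, 7.40 and 7.58 in replicates 1, 2 and 3 with stellate cells, against 6.17, 6.42 and 6.40 alone. Here too the groups did not overlap, and replicate 3 with stellate cells was the highest array, whereas for CLDN3 it was the lowest of its group. The means were 7.29 ± 0.36 with stellate cells and 6.33 ± 0.14 alone (SD, n = 3 each). The log2 change was 0.96 ± 0.23 (SE), or 1.94-fold higher (limma adjusted p = 0.0408). CLDN2 is a dim probe, with 57.6% of tested probes brighter, and its change was 0.48 without background correction, with the call kept (adjusted p = 0.0411). Without that correction CLDN3 had a change of 0.85, so the like size of the 2 changes holds on the corrected scale. The deposited signals overlapped, at 158, 316 and 226 units with stellate cells and 203, 178 and 190.4 alone. The call held without replicate 1 or 3 with stellate cells (limma adjusted p = 0.0493 and 0.0218). It was lost when replicate 2 with stellate cells was dropped (0.135) or replicate 1, 2 or 3 alone (0.146, 0.128 and 0.152), without the intensity trend (0.0558), and under median scaling, where the change was 0.74 (0.279).

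**Figure D1:**
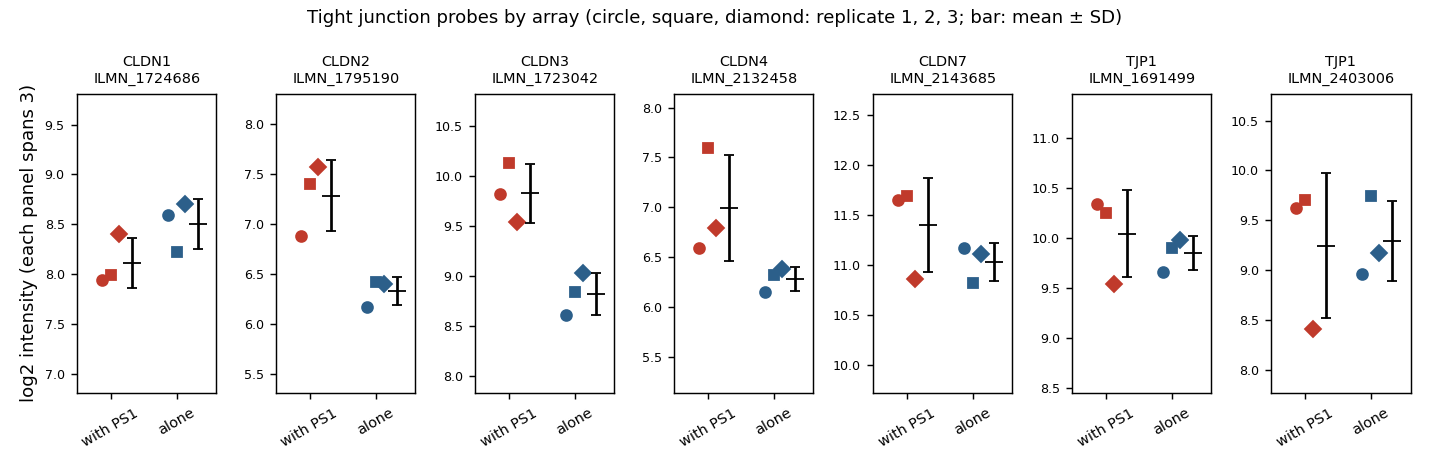
Log2 intensity of the 7 tested tight junction probes on each array, with PS1 stellate cells (red) left of alone (blue); symbols mark replicates 1, 2 and 3, bars the mean ± SD, and every panel spans the same range. CLDN2, CLDN3 and CLDN4 do not overlap between groups, and replicate 3 with PS1 is the lowest array of its group for CLDN3, CLDN7 and both TJP1 probes.

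The start regions of the 2 genes that rose are shown because both were higher with stellate cells while these windows differ in base content and motif matches. CLDN4, the neighbour of CLDN3, and CLDN1, whose value lay below 0, are set beside them. Each is the RefSeq promoter window of 300 bases (build GRCh38.p14), from 250 bases before the start to 50 after it, written 5′ to 3′ on the gene's strand. All 8 members with probes matched this table; the windows printed are 1 for CLDN3 (chr7:73770221-73770520, minus strand), 1 for CLDN4 (chr7:73830746-73831045, plus strand), 1 for CLDN1 (chr3:190322397-190322696, minus strand) and 2 for CLDN2 (chrX:106899914-106900213 and chrX:106918110-106918409, both plus strand). Capitals mark matches, on either strand, to the GC box that SP1 binds (GGGCGG), the ETS family motif (AGGAAG) or the E-box bound by SNAI factors (CAGGTG). A search was also made for the TATAAA box and for the motif of GRHL factors, AACCGGTT.
CLDN3: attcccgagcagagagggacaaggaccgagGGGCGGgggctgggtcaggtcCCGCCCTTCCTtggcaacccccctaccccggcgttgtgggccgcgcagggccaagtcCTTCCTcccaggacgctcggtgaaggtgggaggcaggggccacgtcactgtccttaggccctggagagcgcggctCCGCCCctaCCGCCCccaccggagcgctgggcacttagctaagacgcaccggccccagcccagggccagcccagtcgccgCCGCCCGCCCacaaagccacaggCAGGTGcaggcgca
CLDN4: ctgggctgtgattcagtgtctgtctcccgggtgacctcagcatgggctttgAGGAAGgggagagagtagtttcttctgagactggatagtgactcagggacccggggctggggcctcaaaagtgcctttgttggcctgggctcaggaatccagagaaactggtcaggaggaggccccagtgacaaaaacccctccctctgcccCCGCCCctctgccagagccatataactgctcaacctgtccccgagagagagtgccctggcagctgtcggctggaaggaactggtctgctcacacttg
CLDN1: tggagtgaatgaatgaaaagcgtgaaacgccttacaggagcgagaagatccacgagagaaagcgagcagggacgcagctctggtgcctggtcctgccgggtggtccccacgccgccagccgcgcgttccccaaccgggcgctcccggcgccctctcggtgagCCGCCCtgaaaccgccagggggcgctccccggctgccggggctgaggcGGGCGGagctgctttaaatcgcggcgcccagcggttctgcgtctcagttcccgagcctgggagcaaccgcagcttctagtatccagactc
CLDN2, first start: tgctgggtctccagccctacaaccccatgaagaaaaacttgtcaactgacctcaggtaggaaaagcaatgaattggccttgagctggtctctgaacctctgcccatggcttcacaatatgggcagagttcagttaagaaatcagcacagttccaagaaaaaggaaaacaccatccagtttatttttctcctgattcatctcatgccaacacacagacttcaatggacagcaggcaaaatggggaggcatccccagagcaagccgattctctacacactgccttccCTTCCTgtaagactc
CLDN2, second start: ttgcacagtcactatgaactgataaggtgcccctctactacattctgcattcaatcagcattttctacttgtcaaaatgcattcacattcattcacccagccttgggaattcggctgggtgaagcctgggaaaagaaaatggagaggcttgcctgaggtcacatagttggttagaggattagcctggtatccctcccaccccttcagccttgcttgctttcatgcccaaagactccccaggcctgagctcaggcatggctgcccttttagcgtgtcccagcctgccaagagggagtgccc
In the CLDN3 window 9 matches were found: 6 to the GC box, 2 to the ETS motif and 1 to the E-box, with 1 pair of GC boxes overlapping and 1 GC box sharing a base with an ETS match. CLDN4 had 1 GC box and 1 ETS match, CLDN1 had 2 GC boxes, the first CLDN2 window had 1 ETS match and the second had none. Neither the TATAAA box nor the GRHL motif lay in any of the 5 windows. Over all 35116 windows of the table, 45.0% held a GC box, 33.6% an ETS motif, 20.6% the E-box, 11.5% the TATAAA box and 0.134% the GRHL motif. The CLDN3 window had a GC content of 72.0% and 24 CpG sites, against 47.3% and 1 CpG in the first CLDN2 window and 51.3% and 2 in the second. The median window of the table had 58.7% and 14. A match describes letters in a window and was not tested against any binding data. CLDN3 and CLDN4 lie beside each other on chromosome 7 with 0 protein-coding genes between them in RefSeq, and CLDN2 is on the X chromosome.

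CLDN4, a sealing claudin and receptor for a clostridial enterotoxin (probe ILMN_2132458), was at 6.59, 7.59 and 6.80 with stellate cells, against 6.16, 6.32 and 6.38 alone. Replicate 2 with stellate cells was high, but all 3 arrays with stellate cells lay above all 3 alone. The log2 change was 0.71 ± 0.27 (SE, 95% interval 0.125 to 1.29) and did not pass (limma adjusted p = 0.176). Without replicate 2 with stellate cells the value was 0.40, and without replicate 1 with stellate cells 0.91. Without replicate 3 with stellate cells it was 0.82, with an adjusted p of 0.0502, and without background correction 0.35. Groups of 3 of the 6 members, CLDN2, CLDN3 and CLDN4, did not overlap, all 3 with the higher values in the arrays with stellate cells, against 26.1% of all genes in either direction and 14.6% upward. For CLDN3 and CLDN4 the groups overlapped under median scaling, and for all 7 tested probes they overlapped in the deposited signals.

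CLDN7, a claudin found along the whole lateral membrane (probe ILMN_2143685), was at 11.65, 11.69 and 10.85 with stellate cells, against 11.17, 10.82 and 11.11 alone. Replicates 1 and 2 with stellate cells lay above every array alone, and replicate 3 lay among them. The log2 change was 0.37 ± 0.21 (SE, limma adjusted p = 0.397). Without replicate 3 with stellate cells CLDN7 passed, at 0.64 with an adjusted p of 0.00667, in a fit where 17.5% of all genes passed. It also passed with array weights (0.53, adjusted p = 0.0136), whereas under median scaling the value was 0.098 (adjusted p = 0.908). The values were 0.24 and 0.23 without replicates 1 and 2 with stellate cells and 0.26 without replicate 2 alone.

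CLDN1, a sealing claudin best known from skin (probe ILMN_1724686), was at 7.95, 7.99 and 8.40 with stellate cells, against 8.60, 8.23 and 8.70 alone. The groups overlapped through replicate 3 with stellate cells, which lay above replicate 2 alone. The log2 change was -0.40 ± 0.20 (SE, 95% interval -0.825 to 0.033, limma adjusted p = 0.314), the only member gene with a value below 0. It passed in 1 of the alternatives, with arrays weighted by their quality (-0.58, adjusted p = 0.0152), and missed the threshold without replicate 3 with stellate cells (-0.54, adjusted p = 0.0528).

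TJP1, the ZO-1 scaffold, was read by 2 probes, annotated to different transcript accessions. ILMN_1691499 was at 10.34, 10.25 and 9.54 with stellate cells, against 9.66, 9.90 and 9.98 alone. ILMN_2403006 was at 9.63, 9.70 and 8.41 with stellate cells, against 8.96, 9.74 and 9.18 alone. On both probes replicate 3 with stellate cells was the lowest of the 6 arrays. The log2 changes were 0.20 ± 0.21 and -0.045 ± 0.31 (SE, limma adjusted p = 0.677 and 0.963), opposite in sign and both within their error. Without replicate 3 with stellate cells they were 0.44 and 0.37 (adjusted p = 0.0543 and 0.229).

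**Figure D2:**
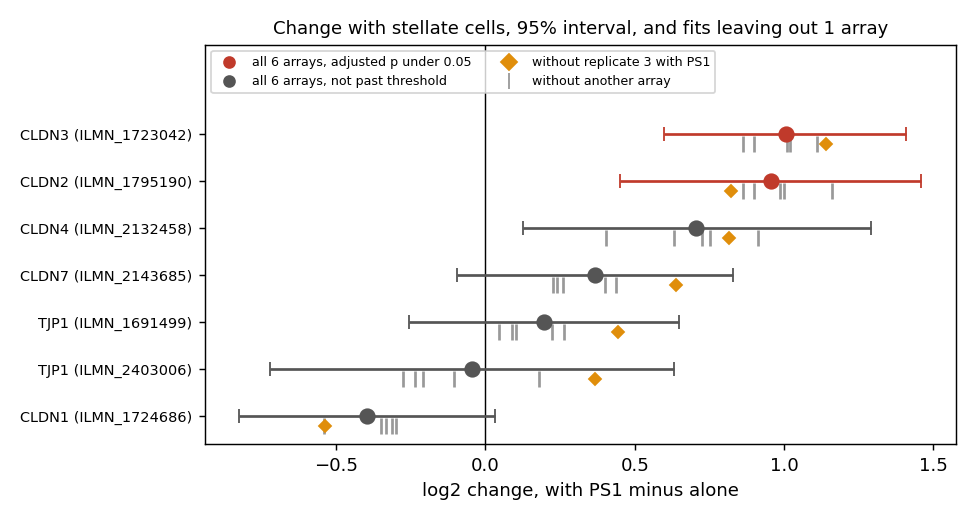
Log2 change (with PS1 minus alone) of the 7 tested tight junction probes; large points and bars are the limma estimate and its 95% interval, red where the adjusted p is under 0.05, and small marks are fits without 1 array. CLDN3 (1.01) and CLDN2 (0.96) passed; leaving out replicate 3 with PS1 moved CLDN7 to 0.64 and the TJP1 probes to 0.44 and 0.37.

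CLDN18, the gastric claudin, had 4 probes, of which 1 is annotated to a transcript of its own and 3 share another. OCLN had 2. None of these 6 probes was detected on any of the 6 arrays. The lowest detection p was 0.177 for CLDN18, on probe ILMN_2389054, and 0.452 for OCLN, on probe ILMN_1724149. Log2 intensities ran from 4.38 to 4.91 over these probes and arrays, and no fold is given, since both groups have only an upper bound. A probe not above background limits the level that probe could read and does not show that the gene is silent.

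In a ratio of 2 probes on the same array a common scaling factor cancels, but effects of background correction, offset and quantile normalization do not. The ratios describe how unequally the members changed. Over the 15 pairs of the 6 tested genes, the groups did not overlap in 6. No share over ratios of all genes was computed, and for single genes it was 26.1%. The pairs are not independent: each of these 6 holds CLDN2, CLDN3 or CLDN4, whose own groups did not overlap. The count is therefore a description only. The ratio of CLDN3 to CLDN1 had log2 values of 1.87, 2.14 and 1.14 with stellate cells, against 0.011, 0.61 and 0.32 alone, a shift of 1.40 or 2.64-fold. The ratio of CLDN2 to CLDN1 was -1.06, -0.59 and -0.82 with stellate cells, against -2.42, -1.81 and -2.30 alone, a shift of 1.35. CLDN4 against CLDN1 shifted by 1.10, CLDN3 against TJP1 by 0.81, CLDN2 against TJP1 by 0.76 and CLDN3 against CLDN7 by 0.64. Every ratio was set with the gene of larger change on top. In those 6 pairs the higher ratios therefore lay with stellate cells by construction. The ratio of CLDN3 to CLDN2 averaged 2.54 ± 0.51 with stellate cells and 2.49 ± 0.12 alone (SD, n = 3 each), a shift of 0.051 that lay within the spread. It was 0.34 without replicate 3 with stellate cells and 0.37 without background correction, both settings chosen for the ratios after the data were seen. Without that replicate the same 6 pairs and 3 more did not overlap, with CLDN3 over CLDN1 at 1.69 and CLDN2 over TJP1 at 0.36. The other ratios were left as they were, so the 6 pairs could not come to overlap. Groups also separate more easily with fewer arrays, so neither count is a test. Without background correction CLDN2 over CLDN1 shifted by 0.77 and CLDN4 over CLDN1 by 0.64 with no overlap, while CLDN2 over TJP1 (0.30) overlapped. An exact two-sided permutation test of 3 arrays against 3 cannot give a p below 0.1. All 6 pairs reached 0.1, which is 0.25 after Benjamini-Hochberg adjustment over the 15 pairs. No pair passed.

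**Figure D3:**
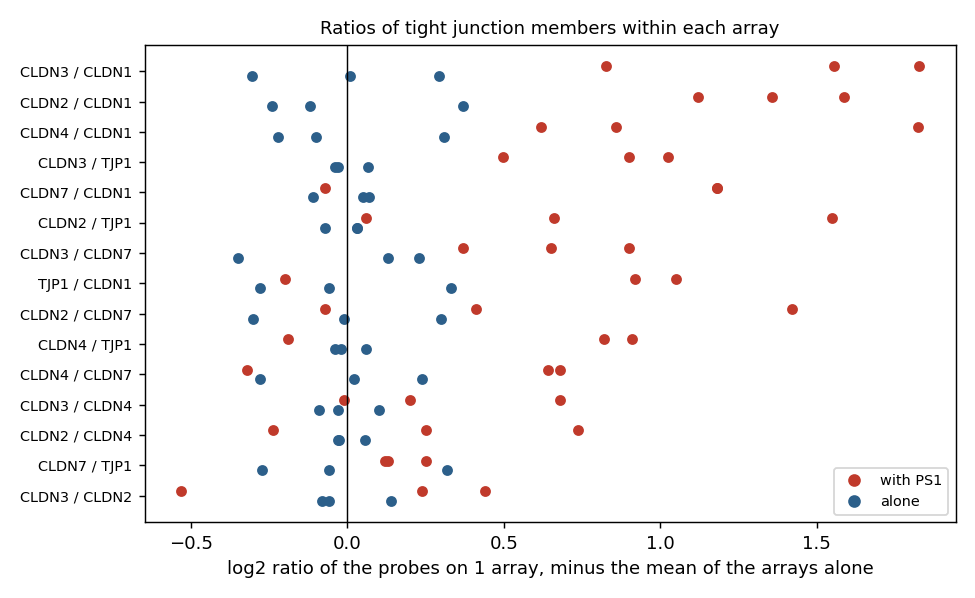
Log2 ratio of 2 tight junction probes on the same array, as a distance from the mean of the arrays alone, for all 15 pairs; red points are arrays with PS1, blue points arrays alone. The 3 largest of the 15 shifts have CLDN1 as the lower member, up to 1.40 for CLDN3 / CLDN1, and the groups do not overlap in 6 pairs.

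The rest of the junction machinery was read through 5 gene lists, also chosen with earlier results of these data known. Of 14 tested genes among the other claudins and strand proteins 0 passed (limma adjusted p), and their median log2 change was 0.18. At an unadjusted limma p under 0.05, which 18.3% of all tested probes reached, there was 1 gene, ILDR1, a protein of tricellular junctions chosen after its value was seen (0.48 ± 0.17, adjusted p = 0.148). CLDN12 and CLDND1, the brightest of the list, had changes of 0.34 ± 0.16 and -0.27 ± 0.15 (SE, adjusted p = 0.288 and 0.372). Groups in this list did not overlap for ILDR1, upward, and for CLDND1, downward, against 26.1% of all genes in either direction. CLDN5, CLDN6, CLDN16, CLDN17 and CLDN22 were detected on no array. Of 17 plaque and polarity genes 0 passed as well, with a median of 0.15. CGN, which encodes the plaque protein cingulin, was at 11.03, 10.99 and 10.61 with stellate cells and 10.47, 10.27 and 10.40 alone, so its groups did not overlap, but its change of 0.50 ± 0.16 missed the threshold (adjusted p = 0.103). YBX3, the brightest of the plaque list, went the other way without overlap. It was at 11.87, 11.84 and 11.71 with stellate cells and 12.12, 11.92 and 11.97 alone. Its change was -0.20 ± 0.13 (SE, limma adjusted p = 0.473). Of the 17, 5 had an unadjusted limma p under 0.05: CGN, CGNL1, AMOT and LLGL2 upward, with DLG1 at -0.63, the last 4 chosen after their values were seen. Without replicate 3 with stellate cells 2 of the 14 strand genes and 4 of the 17 plaque genes passed, all upward, where 17.5% of all genes passed in either direction.

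Among 8 tested partners of claudins and membrane proteases 2 rose and 0 fell, with a median of 0.34, against 2.65% of all genes upward and 2.11% downward. Without replicate 3 with stellate cells 5 of the 8 rose, where 17.5% of all genes were called in either direction in that fit. PRSS8, the membrane-anchored protease prostasin, was at 10.40, 10.26 and 10.09 with stellate cells, against 9.61, 8.68 and 9.30 alone, without overlap. PRSS8 was 2.07-fold higher (limma adjusted p = 0.0198). TMPRSS4, another transmembrane serine protease, was 1.93-fold higher (adjusted p = 0.0464), a log2 change of 0.95 that was 0.55 without background correction and 0.60 in a fit of the authors' deposited table. PRSS8 kept its call without replicate 3 with stellate cells or replicate 1 alone, and was lost without any other array, at an adjusted p of 0.056 to 0.105. TMPRSS4 kept its call only without replicate 3 with stellate cells; over the other 5 arrays left out its adjusted p was 0.102 to 0.228. Neither protease passed under median scaling (0.192 for PRSS8 and 0.352 for TMPRSS4), and TMPRSS4 missed the threshold with no filter on dim probes (0.053). Without the intensity trend both missed it (0.0613 and 0.0725). EPCAM, which binds CLDN7 and CLDN1 and is one of the brightest genes of the list, was at 12.68, 12.32 and 12.84 with stellate cells and 12.50, 12.89 and 12.78 alone, overlapping throughout. SPINT2, an inhibitor of such proteases, had a change of 0.44 ± 0.15 that did not pass (adjusted p = 0.141). Of 13 actomyosin regulators 0 passed, and their median was -0.013, with 1 called without replicate 3 with stellate cells. At an unadjusted limma p under 0.05 there was 1, MYH14, a myosin heavy chain chosen after its value was seen (adjusted p = 0.194). ROCK2, a kinase that drives myosin, and MYL12B, a myosin light chain, had changes of -0.067 and -0.12.

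Of 14 tested transcription factors known to act on junction genes 1 rose and 2 fell, against 2.65% and 2.11% of all genes. Their median log2 change was 0.06, and without replicate 3 with stellate cells 3 rose and 2 fell, where 17.5% of all genes passed in either direction. ELF3, an epithelial ETS factor, was at 11.01, 10.96 and 10.52 with stellate cells, against 9.64, 9.85 and 9.81 alone, without overlap. ELF3 was 2.10-fold higher (limma adjusted p = 0.00485) and passed in all 6 fits that leave out 1 array, but not under median scaling (0.81, adjusted p = 0.116). SNAI2, a repressor that binds E-boxes of claudin and cadherin genes, was detected on 0 of 3 arrays with stellate cells and on 3 of 3 alone. It met the detection filter of 3 arrays only through the group where it is high, so its selection was not independent of the difference. The fit of probes detected on all 6 arrays leaves SNAI2 out. SNAI2 was at 4.71, 4.76 and 4.56 with stellate cells, against 6.18, 6.30 and 6.10 alone, and at least 1.87-fold lower on this scale (limma adjusted p = 0.00438). That bound divides the mean alone by a floor: on each array with stellate cells, SNAI2's own level or the dimmest level detected there, whichever was greater. The size depends on the background handling: the log2 change was -0.54 without correction, -0.64 in a fit of the authors' deposited table and -0.85 with the larger offset of 50, with the call kept in each, so the fold is a bound on the main scale only. FOXA2, a foregut factor, was 1.74-fold lower (adjusted p = 0.0137). FOXA2 lost its call when replicate 1 with stellate cells was left out, and likewise for each of the 3 arrays alone (0.0594 to 0.0849). FOXA1 had a change of 0.55 ± 0.16 (adjusted p = 0.0804). SNAI1, ZEB1 and ZEB2 were detected on no array.

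**Figure D4:**
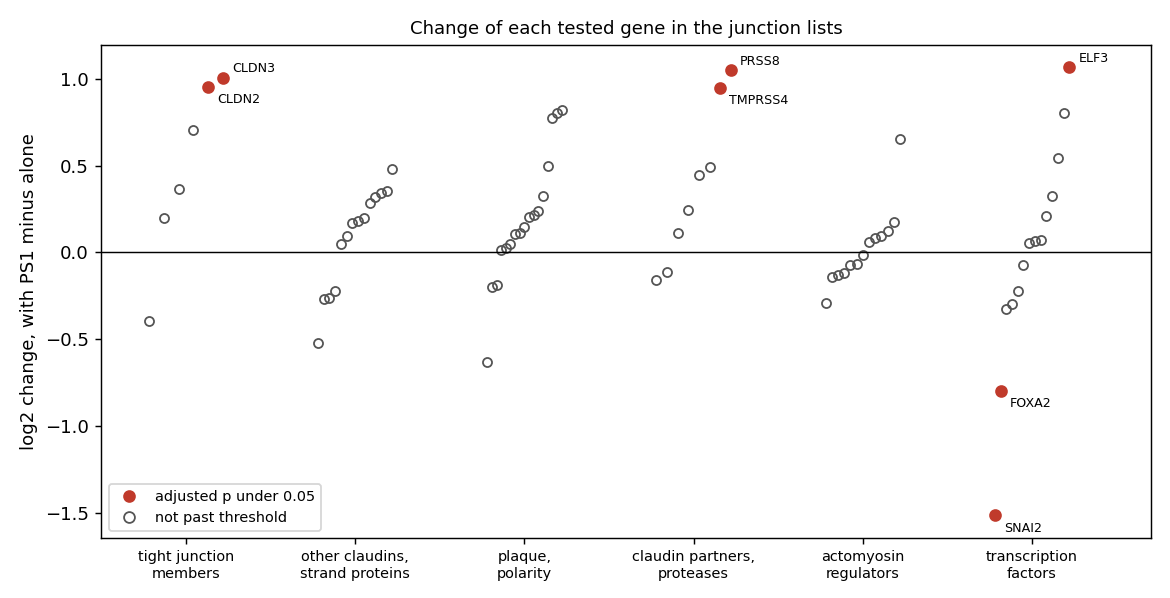
Log2 change (with PS1 minus alone) of each tested gene among the tight junction members and the 5 junction lists, ordered within each list; filled red points passed a limma adjusted p of 0.05. CLDN2 and CLDN3 are the called members, and 5 genes are called over the other lists: PRSS8, TMPRSS4 and ELF3 higher, SNAI2 and FOXA2 lower.

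The captured layer carried the markers of its label. Of 14 epithelial markers 12 were detected on all 6 arrays and none was missing from all, with a summed intensity of the 13 tested genes between 40690 and 48570 with stellate cells and 35170 to 41050 alone. Of these 13 genes 2 rose and 0 fell, against 2.65% of all genes upward and 2.11% downward. The 2 were ELF3, which stands also among the transcription factors, and MUC1, a membrane mucin (2.29-fold, limma adjusted p = 0.0015). KRT19, the bright duct keratin, had a change of 0.028. Of 27 stellate and fibroblast markers 9 could be tested, 0 rose and 1 fell, against 2.65% of all genes upward and 2.11% downward. Of the 27, 3 were detected on all 6 arrays and 12 on no array, among them FN1, COL1A2, PDGFRA, PDGFRB, THY1, FAP, LUM and DES. The 9 summed to 15250 to 21920 with stellate cells and 14550 to 16870 alone, with S100A4 and TIMP1, which epithelial cells also express, as the brightest. S100A4 and TIMP1 made up most of each sum, which therefore says little about the other markers. VIM was the third marker detected on all 6 arrays. COL1A1 was detected on 2 of 3 arrays with stellate cells and 3 of 3 alone. Both were named after their values were seen. COL6A1, a chain of type VI collagen, was 2.49-fold lower (adjusted p = 0.0216), with a log2 change of -1.31, or -0.55 without background correction. Dropping replicate 1 with stellate cells, or any 1 of the arrays alone, ended that call (0.0738 to 0.135). COL6A2 and COL6A3, also type VI chains and named after their values were seen, had changes of -0.29 and 0.62. Neither passed (limma adjusted p = 0.586 and 0.397). ACTA2 and TAGLN, contractile proteins of activated stellate cells chosen after their values were seen, did not pass: ACTA2 had a change of -1.04 (adjusted p = 0.0526), and TAGLN, detected on 3 arrays with stellate cells and 0 alone, was at least 1.44-fold higher on this scale (adjusted p = 0.0674). TAGLN met the detection filter only through the arrays with stellate cells. Without replicate 3 with stellate cells 3 epithelial markers rose, 2 stellate markers rose and 2 fell, and 1 endothelial or blood marker rose. In that fit 17.5% of all genes passed in either direction. Of 10 endothelial and blood markers 3 were tested and 0 passed, with sums of 901 to 1199 with stellate cells and 748 to 838 alone; at an unadjusted p under 0.05 there were also 0, and VWF and CDH5 were detected on no array. PECAM1, an endothelial adhesion protein, and CD68, a lysosomal protein of macrophages, had changes of 0.71 and 0.31 (adjusted p = 0.292 and 0.383). The part of these markers in the claudin results was not tested. In such bulk samples more cells with a transcript and more transcript per cell cannot be told apart. The housekeeping genes ACTB and GAPDH ran from 13.69 to 14.25 and from 12.88 to 13.24 with stellate cells, against 14.08 to 14.17 and 12.79 to 13.09 alone.

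The genes whose levels most resembled the 2 risen claudins over the 6 arrays, by Pearson's r, did not coincide. For CLDN3 they were ACBD3 (r = 0.998), TMEM214 (0.996), TMEM17 (0.995) and VPS28 (0.993), none of which passed the threshold, TMEM214 being nearest (limma adjusted p = 0.0515). For CLDN2 they were KCNJ4 (r = 0.993), DHRS4 (0.985), TFF1 (0.983) and INAFM1 (0.982), of which TFF1, a trefoil peptide secreted with mucins, rose by 0.83 on the log2 scale (adjusted p = 0.0189). These are the highest values over all other genes on only 6 arrays, which fall in 2 groups, and serve as a description.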

How the data were processed

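RNA of the captured Capan1 layer was hybridised to Illumina BeadChips. Per the file headers, the deposited table pairs an intensity with a detection p-value for every probe and array, without normalization. The submitters' processing notes name BeadStudio and GenomeStudio 2011.1; no further steps were given. The authors' deposited value table holds intensity on a linear scale, not centred, with probes ranked as in the signals (Spearman rho = 1), with medians of 122.90 to 122.96; it served as an alternative. Here, signals were corrected with limma's normexp from detection p-values, with an offset of 16, quantile normalized, then log2 transformed. The 18165 probes detected (p below 0.05) on 3 or more of the 6 arrays were fitted by group with lmFit, and eBayes used an intensity trend (limma 3.58.1, R 4.3.3), two-sided, Benjamini-Hochberg over all probes, and the fit was tested on simulated data. The number of arrays limits the precision. Symbols came from the platform annotation, updated by gene ID through RefSeq: 13986 tested probes had 1 symbol, 3 several and 4176 none, leaving 10781 genes, each read by its brightest probe.

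Members and lists were chosen with earlier results of these data known. Named genes are all members, up to 6 called genes and the 2 brightest of each list, the 4 genes most like each called member, ACTB, GAPDH and 28S RNA. Motifs were chosen after the results. Alternatives were other backgrounds, offsets, scalings, filters, variance models, array weights, the replicate block and leaving out each array.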

Additional observations from a re-analysis of the deposited data

How the results depend on the processing

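Leaving out 1 array gave 0 to 3 member genes called, against 2, with 153 to 2744 of all probes, against 730, and 2 to 17 genes over the 5 junction lists, against 5. The highest values came without replicate 3 with stellate cells. Array weights gave 4 members, 3357 probes and 17 list genes. Without the intensity trend there were 1 member, 392 probes and 3 list genes. Median scaling gave 0 members and 2 list genes, and 83 of its 520 calls were upward, against 366 of 730. CLDN2, CLDN3, CLDN4 and CLDN7 had values above 0, and CLDN1 below 0, in all 18 alternatives. The TJP1 probe ILMN_1691499 turned to -0.085 under median scaling. ILMN_2403006 turned to 0.33 with array weights and ran from -0.275 to 0.368 with 1 array left out. Same-numbered arrays showed little joint deviation from their group means (r = -0.024, -0.031 and 0.080), and not every array correlated best with its own number. With 3 arrays per group these correlations cannot exclude that same-numbered cultures were paired. The replicate block gave 783 probes and kept both members (limma adjusted p = 0.0314 for CLDN2 and 0.0113 for CLDN3). The chip as a block was not run, since the headers name no chip. The causes of these shifts were not tested. Dim probes limit CLDN2 and CLDN4: without background correction their changes were 0.48 and 0.35, against 0.96 and 0.71.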
